A study of Mus musculus with 8 samples.

Results

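The insulin, PI3K and AKT signaling core was examined as 8 genes, Insr, Igf1r, Irs1, Irs2, Pik3ca, Pik3r1, Akt1 and Akt2, which were chosen by name, with earlier results of these data known. All 8 were found among the 22520 genes of the deposited RNA sequencing table. The libraries were made from microvascular endothelial cells (ECs) of C57BL/6 mice at postnatal day 14, and the labels call each one a mixture of heart, liver and lung cells, whereas the study's text describes liver ECs and heart and lung ECs as separate preparations. Which of these each library holds is not settled by the sources used here. There were 4 LRP1 KO and 4 WT libraries, and the labels do not say whether each came from a separate mouse, so p-values measure the spread between these libraries, which may be technical. The study's methods give the knockout as Lrp1 f/f; Cdh5-CreER+/- and the WT littermates as Lrp1 f/f; Cdh5-CreER-/-. The floxed Lrp1 alleles were therefore shared by both groups, and the groups differ in the Cre transgene as well as in Lrp1. The recombinase is tamoxifen-inducible and driven by the Cdh5 promoter, so it is designed to act in cells that express Cdh5, and the cells were selected with PECAM-1 antibody beads.

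Insulin and the insulin-like growth factors bind receptor tyrosine kinases, which phosphorylate the insulin receptor substrate (IRS) adaptors. These recruit phosphoinositide 3-kinase (PI3K), a pair of a catalytic and a regulatory subunit, which makes the membrane lipid PIP3. PIP3 brings the AKT kinases to the membrane, where they are activated and phosphorylate targets such as the FoxO factors, which then leave the nucleus. In ECs this route is known for control of nitric oxide synthesis, survival and the passage of insulin into tissue. The data below are transcript levels, and the pathway itself is run by phosphorylation, which was not measured here.

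Levels are given as quantile-normalized FPKM, a read density corrected for transcript length and library size, always in the order of libraries 1 to 4, and the sequencing depth behind them is unknown. The 8 libraries summed to 503571 to 504112 FPKM, and no pair held identical values. Lrp1, the targeted gene, lay between 103 and 140.4 FPKM in WT and between 2.79 and 7.72 FPKM in LRP1 KO, whose mean was 3.99% of that of WT. LRP1 KO library 4 had the highest Lrp1 value of its group. It was the LRP1 KO library nearest the WT mean in 50.3% of the 11389 genes tested. Differences and ratios of the core genes are therefore also given without it. The endothelial label was met in part. All 18 endothelial markers were above 0 in every library, but in WT Cdh5 averaged 9.59 FPKM beside 882 FPKM for the fibroblast collagen Col1a2. Single genes of the 2 lists also went the other way, with WT means of 56.5 FPKM for endothelial Eng and 2.56 FPKM for fibroblast Fap. FPKM of different genes does not measure the share of cells. The 18 endothelial markers summed to 181, 184, 191 and 175 FPKM in WT, and the 4 LRP1 KO sums were 634, 399.8, 469 and 182 FPKM. Their 16 tested genes all had estimates above 0 and 1, Eng, was called higher. Of 12 tested macrophage markers 10 were called higher in LRP1 KO and 11 had estimates above 0. Cd14 went the other way, from 37.3 to 26.9 FPKM on average, and was not called. All 16 macrophage markers with values, tested or not, summed to 93.3 to 119 FPKM in WT, against 255 to 617 FPKM in LRP1 KO. For 8 tested mural markers 4 were called higher. All 10 mural markers, tested or not, summed to 635 to 802 FPKM in WT, against 990 to 1578 FPKM in LRP1 KO. For 12 fibroblast markers 3 were called lower, with sums of 2754 to 3910 FPKM in WT, against 2246 to 3471 FPKM in LRP1 KO. The low Lrp1 level was thus measured in libraries in which the summed fibroblast markers remained above the summed endothelial ones. Which cells had lost Lrp1 was not tested. Hepatocyte markers summed to at most 1.63 FPKM and lung epithelial markers to at most 4.31 FPKM in any library, and cardiomyocyte markers to 90.3 to 156 FPKM, most of it from Tnnt2 (81.6 to 152 FPKM), and the list did not move one way, since Myh6 was higher in LRP1 KO and Tnni3 and Ryr2 lower, each without overlap. None of the 3 tested cardiomyocyte markers was called, and the 1 tested lung epithelial marker, Scgb1a1, was called lower. In such bulk libraries, fewer cells of a type and less RNA per cell cannot be told apart, and the part that these cell types have in the results below was not tested.

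A gene was called changed when limma, fitted to all tested genes on the log2(FPKM + 1) scale, gave an adjusted p-value under 0.05. Of all tested genes 13.6% were called, 6.27% higher and 7.31% lower in LRP1 KO. Among the 8 core genes 1 was called, Pik3r1, which was lower. The values of LRP1 KO and WT did not overlap for 3 core genes, Pik3r1, Akt1 and Akt2, against 19.6% of all tested genes. The median difference of the 8 was -0.12 on the log2(FPKM + 1) scale, with a range from -0.30 to 0.25, beside a median of -0.01 over all tested genes. A share of 1 in 8 called is close to the share of all genes. At an unadjusted limma p under 0.05, 4 of the 8 passed (Insr, Pik3r1, Akt1 and Akt2), beside 33.7% of all tested genes. No core gene had a 2-fold change on this scale together with an adjusted p under 0.05, and 1.62% of all tested genes did. LRP1 KO library 4 was the nearest of its group to the WT mean for 6 core genes, and library 2 was the nearest for Igf1r and Irs1, as it was for 20.1% of all tested genes.

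**Figure D1:**
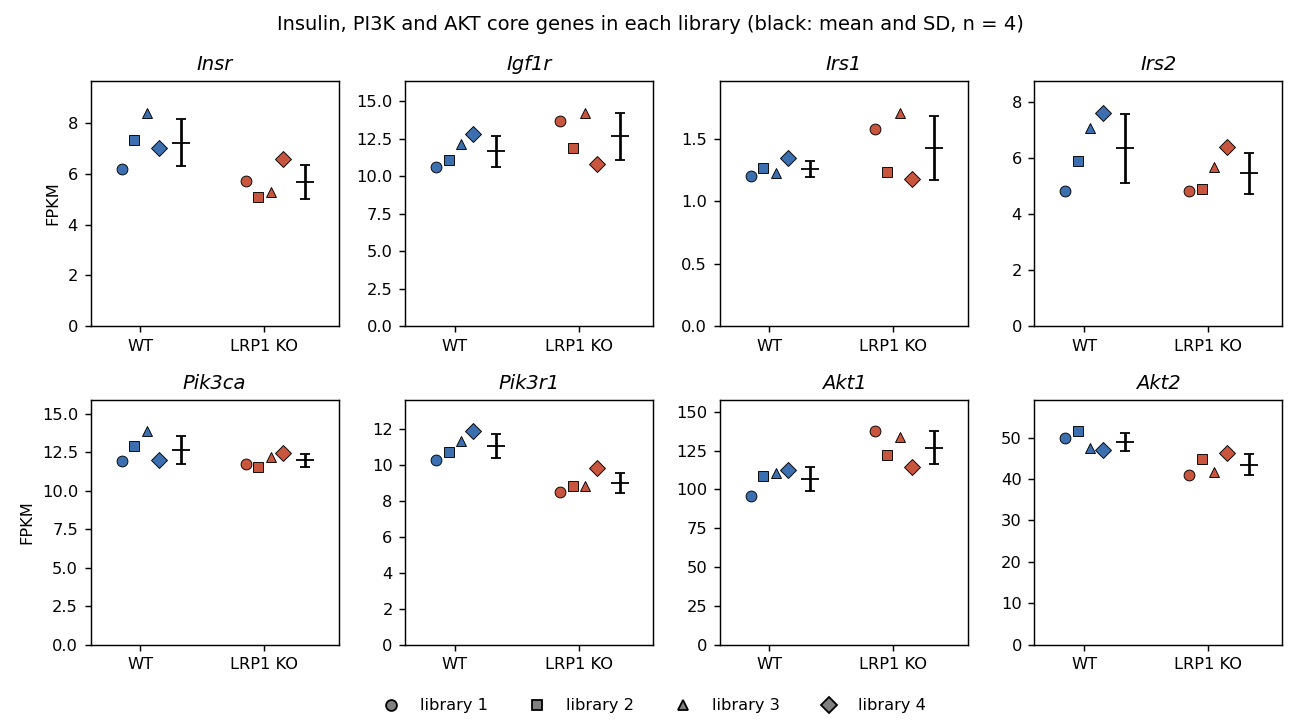
FPKM (y axis, from 0, with its own scale in each panel) of the 8 core genes in each WT (blue) and LRP1 KO (red) library, with marker shapes for library numbers and black bars for the mean and SD of 4 libraries. The groups are apart for Pik3r1, Akt1 and Akt2 and overlap for the other genes, and LRP1 KO library 4 is nearest the WT mean for 6 of the 8.

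The receptors were described first. Insr encodes the insulin receptor and lies at chr8:3122061-3279617 (GRCm38, minus strand). Its levels were 6.18, 7.34, 8.40 and 6.999 FPKM in WT, against 5.73, 5.10, 5.27 and 6.60 FPKM in LRP1 KO. WT library 1 was below LRP1 KO library 4, so the groups overlapped, while the other 3 LRP1 KO libraries were below every WT library. The means were 7.23 ± 0.918 and 5.68 ± 0.674 FPKM (SD, n = 4 each), so LRP1 KO stood at 78.5% of WT. The difference of -0.30 on the log2(FPKM + 1) scale (SE 0.10, 95% interval -0.53 to -0.07) missed the threshold, with a limma adjusted p of 0.0762. Without LRP1 KO library 4 it was -0.37, with a limma adjusted p of 0.0266, and in a fit that called 26.5% of all tested genes. Without any 1 of the other 7 libraries the limma adjusted p was 0.0618 to 0.186.

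Igf1r encodes the receptor of insulin-like growth factor 1 and lies at chr7:67952827-68233668 (plus strand). It had 10.6, 11.1, 12.1 and 12.8 FPKM in WT, against 13.7, 11.8, 14.2 and 10.8 FPKM in LRP1 KO. LRP1 KO libraries 1 and 3 were above every WT library, and the other LRP1 KO libraries lay among the WT values. The means were 11.6 ± 1.02 FPKM and 12.6 ± 1.58 FPKM (SD, n = 4 each), and the difference on the log2(FPKM + 1) scale was 0.10 (SE 0.10, 95% interval -0.11 to 0.32, limma adjusted p 0.468). Without LRP1 KO library 4 it was 0.17, again short of the threshold, and it was smallest without LRP1 KO library 3, at 0.05. In FPKM, the transcript of Igf1r was higher than that of Insr in all 8 libraries.

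The adaptors Irs1 and Irs2 couple both receptors to PI3K. Irs1 lies at chr1:82233101-82291416 (minus strand), and Irs2 at chr8:10984681-11008458 (minus strand). Each shares exon sequence with an annotated gene on the opposite strand, Gm9747 for Irs1, which was listed at 0 in all libraries, and 9530052E02Rik for Irs2, which has no entry in the table. The strand setting of the counting is not given in the sources used here, so antisense reads cannot be told apart from those of the adaptors. In RefSeq (GRCm38.p6), the 300-base promoter windows (250 bases before the start to 50 after it) of both adaptors held the insulin response core TGTTTTG, searched on both strands, which was present in 6.28% of 32851 such windows. Counted from the RefSeq start of the transcript, it began at -111 and -32 in Irs1 and at -37 in Irs2. The RefSeq window of Irs2, chr8:11008880-11009179, lies wholly upstream of the gene position given above, which comes from GENCODE. The stretches around the first of these in Irs1 (chr1:82291532-82291561, minus strand) and that in Irs2 (chr8:11008951-11008980, minus strand) are shown 5′ to 3′ with the core in capitals, to set the adaptors side by side. A match is a description of the sequence and not a binding site.
Irs1: gctccgtcacgTGTTTTGctcctctggagt
Irs2: gcagagtcacgtgtTGTTTTGctcttagtt

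Irs1 was the lowest of the 8 genes, at 1.20, 1.27, 1.22 and 1.34 FPKM in WT, against 1.58, 1.24, 1.70 and 1.17 FPKM in LRP1 KO. LRP1 KO libraries 1 and 3 were above the WT range and library 4 was below it, so the LRP1 KO values surrounded those of WT. The means were 1.26 ± 0.0623 FPKM and 1.42 ± 0.259 FPKM (SD, n = 4 each). The difference was 0.10 on the log2(FPKM + 1) scale (SE 0.09, 95% interval -0.11 to 0.31, limma adjusted p 0.493), a scale on which the change of so low a gene is understated.

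Irs2 had 4.84, 5.92, 7.08 and 7.62 FPKM in WT, against 4.84, 4.92, 5.70 and 6.40 FPKM in LRP1 KO. The groups shared their low end, and WT libraries 3 and 4 were above every LRP1 KO library. The means were 6.36 ± 1.24 FPKM and 5.47 ± 0.738 FPKM (SD, n = 4 each), with a difference of -0.18 on the log2(FPKM + 1) scale (SE 0.13, 95% interval -0.47 to 0.12, limma adjusted p 0.364). Irs2 was above Irs1 in every library of both groups. For both adaptors the 95% interval of the difference included 0. Without LRP1 KO library 4 the differences were 0.15 for Irs1 and -0.25 for Irs2 on this scale, and neither passed. With 1 library left out they ranged from 0.04 to 0.15 for Irs1 and from -0.28 to -0.10 for Irs2.

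Pik3ca encodes p110-alpha, the catalytic subunit that serves insulin receptors in most tissues, and lies at chr3:32397671-32468486 (plus strand). Its levels were 11.9, 12.9, 13.9 and 11.97 FPKM in WT, against 11.7, 11.5, 12.2 and 12.5 FPKM in LRP1 KO. The groups overlapped, and the means were 12.7 ± 0.912 FPKM and 11.99 ± 0.432 FPKM (SD, n = 4 each). In log2(FPKM + 1) the difference was -0.07, with an SE of 0.06, a limma adjusted p of 0.459 and a 95% interval of -0.22 to 0.07. It was -0.09 without LRP1 KO library 4, and did not pass there either. With 1 library left out it ranged from -0.10 to -0.03.

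Pik3r1 encodes p85-alpha and its shorter forms, the regulatory subunits that stabilize the catalytic subunit and bind phosphorylated IRS adaptors. It lies at chr13:101680563-101768217 (minus strand). Its levels were 10.3, 10.7, 11.3 and 11.9 FPKM in WT, against 8.498, 8.83, 8.80 and 9.83 FPKM in LRP1 KO. The groups were fully apart, with LRP1 KO lower and its library 4 closest to WT. The mean fell from 11.1 ± 0.688 to 8.99 ± 0.579 FPKM (SD, n = 4 each), to 81.3% of its WT level. On the log2(FPKM + 1) scale the difference was -0.27, with an SE of 0.07, a 95% interval of -0.43 to -0.12 and a limma adjusted p of 0.0331. Without LRP1 KO library 4 the difference was -0.31 with a limma adjusted p of 0.0121, in the fit that called 26.5% of all tested genes. The call held without WT library 1 or LRP1 KO library 4, and it was lost without any 1 of the other libraries. The limma adjusted p was 0.0743, 0.0677 and 0.0752 without WT libraries 2, 3 and 4, and 0.101, 0.0871 and 0.0945 without LRP1 KO libraries 1, 2 and 3, with estimates between -0.31 and -0.24 over all alternatives. It was also lost when no filter on low values was used, with a limma adjusted p of 0.0634.

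**Figure D2:**
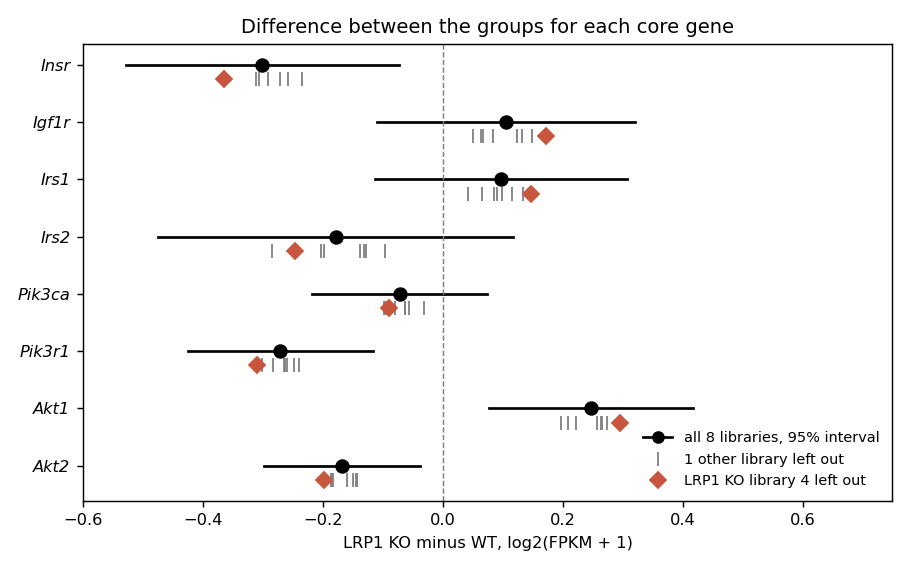
Difference between LRP1 KO and WT on the log2(FPKM + 1) scale (x axis) for each core gene, as the estimate from all 8 libraries with its 95% interval (black), and as estimates with 1 library left out (grey ticks; red diamonds without LRP1 KO library 4). No estimate changes its sign, and those of all 8 genes move away from 0 when LRP1 KO library 4 is left out. That library was the nearest of its group to the WT mean for 6 of the 8, so these moves follow in part from the choice of library.

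The AKT kinases were the most highly expressed genes of the core. Akt1, which has a broad role in growth and survival and is the main AKT isoform of ECs, lies at chr12:112653821-112674884 (minus strand). The levels of Akt1 were 95.5, 108.4, 110.2 and 112.3 FPKM in WT, against 137.3, 122.1, 133.7 and 114.4 FPKM in LRP1 KO. The groups did not overlap, but LRP1 KO library 4 lay just above WT library 4. The means were 106.6 ± 7.58 FPKM and 126.9 ± 10.5 FPKM (SD, n = 4 each), so that the LRP1 KO mean was 119% of that of WT. The difference was 0.25 on the log2(FPKM + 1) scale (SE 0.08, 95% interval 0.08 to 0.42), and with a limma adjusted p of 0.0574 it missed the threshold. Of 16 alternatives 1 passed, that without LRP1 KO library 4, with a difference of 0.30 and a limma adjusted p of 0.0181. That fit called 26.5% of all tested genes. With any 1 other library left out the limma adjusted p was 0.0737 to 0.155.

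Akt2, the isoform known for insulin-driven glucose uptake, lies at chr7:27591552-27640826 (plus strand). It had 49.8, 51.5, 47.4 and 47.1 FPKM in WT, against 41.0, 44.9, 41.6 and 46.2 FPKM in LRP1 KO. All LRP1 KO libraries were below all WT libraries, again with LRP1 KO library 4 next to the WT values. The means were 48.9 ± 2.08 FPKM and 43.5 ± 2.51 FPKM (SD, n = 4 each), or 88.8% in LRP1 KO. The difference of -0.17 on the log2(FPKM + 1) scale (SE 0.06, 95% interval -0.30 to -0.04) had a limma adjusted p of 0.0795. Without LRP1 KO library 4 it was -0.20 with a limma adjusted p of 0.0372, in the fit that called 26.5% of all tested genes. With any 1 other library left out the limma adjusted p was 0.0965 to 0.208.

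RefSeq promoter windows of this kind were matched for 7 of the 8 genes, in 12 windows, and Insr had none. They were searched for the core FoxO motif TGTTTAC on both strands, because FoxO factors are AKT targets. Among the windows of the core genes it occurred in 1, that of Akt1, where it began at position -161 from the start, and 3.65% of the 32851 windows held it. The bases before the start of Akt1 (chr12:112674885-112675134, minus strand) are shown 5′ to 3′ with the motif in capitals. No factor binding was measured in these data.
Akt1: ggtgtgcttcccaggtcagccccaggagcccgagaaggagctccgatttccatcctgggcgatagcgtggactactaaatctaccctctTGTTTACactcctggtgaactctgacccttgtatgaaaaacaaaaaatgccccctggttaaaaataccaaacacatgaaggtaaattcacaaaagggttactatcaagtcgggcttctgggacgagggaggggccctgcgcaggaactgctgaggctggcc

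Ordered by FPKM in WT, Akt1 was highest and Akt2 next, with no overlap between them or with other genes. Pik3ca, Igf1r and Pik3r1 followed. Igf1r overlapped with both of the others, while Pik3ca lay above Pik3r1 without overlap. Next were Insr and Irs2, which also overlapped, and Irs1 was lowest. In LRP1 KO the order of Akt1 and Akt2 was kept, Igf1r and Pik3ca overlapped, and Pik3r1 lay below both, without overlap with either. Insr and Irs2 overlapped again and Irs1 was lowest.

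Related genes were also compared as ratios of FPKM within each library, in which a factor common to a library cancels. The ratio of Akt1 to Akt2 was 1.92, 2.11, 2.33 and 2.38 in WT, against 3.34, 2.72, 3.21 and 2.48 in LRP1 KO. Every LRP1 KO ratio was above every WT ratio, and the geometric means were 2.18 and 2.92, a 1.34-fold difference. The ratio of Pik3ca to Pik3r1 was 1.16, 1.20, 1.22 and 1.01 in WT and 1.38, 1.31, 1.39 and 1.27 in LRP1 KO, again without overlap, and differed 1.17-fold. An exact two-sided permutation test over the 70 ways to choose 4 of 8 libraries gave p = 0.0286 for each of these 2 ratios, the smallest value it can give. After adjustment over the 4 ratios tested, both exact permutation p-values were 0.0571, and neither passed 0.05. The log2 difference was 0.42 for Akt1 to Akt2 and 0.22 for Pik3ca to Pik3r1, and 0.50 and 0.24 without LRP1 KO library 4.

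The other 2 ratios overlapped between the groups. The ratio of Insr to Igf1r was 0.585, 0.663, 0.694 and 0.546 in WT and 0.419, 0.431, 0.371 and 0.611 in LRP1 KO. LRP1 KO library 4 was again among the WT values (log2 difference -0.46, exact permutation p = 0.0857, adjusted 0.114). The ratio of Irs1 to Irs2 was 0.247, 0.214, 0.173 and 0.176 in WT and 0.327, 0.251, 0.299 and 0.183 in LRP1 KO (log2 difference 0.37, exact permutation p = 0.114, adjusted 0.114). Without LRP1 KO library 4 the log2 difference was -0.61 for Insr to Igf1r and 0.54 for Irs1 to Irs2, with unadjusted exact permutation p-values of 0.0286 and 0.0571.

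**Figure D3:**
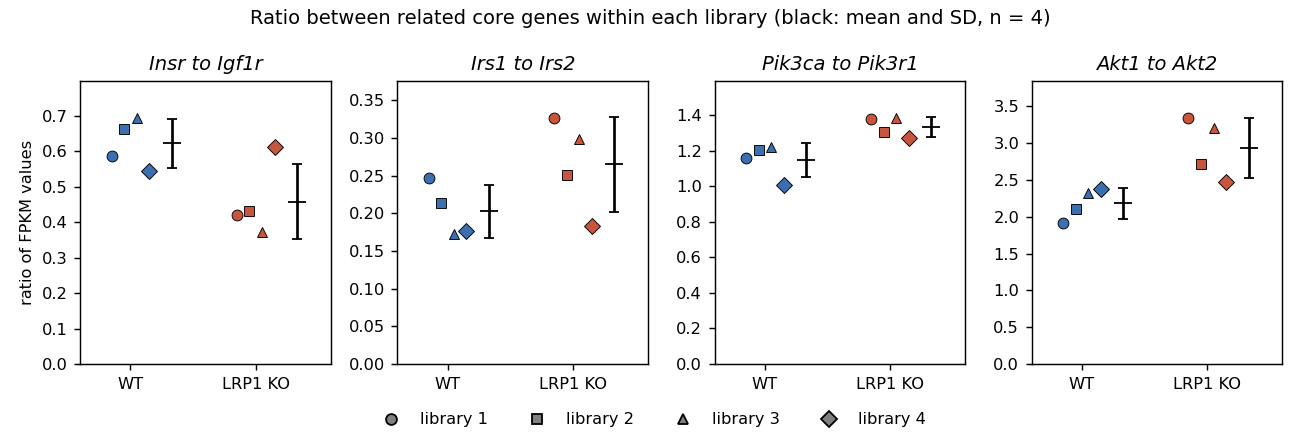
Ratio of FPKM (y axis, from 0) between related core genes within each WT (blue) and LRP1 KO (red) library, with marker shapes for library numbers and black bars for the mean and SD of 4 libraries. The LRP1 KO libraries are above all WT libraries for Pik3ca to Pik3r1 and Akt1 to Akt2, while LRP1 KO library 4 lies among the WT values for Insr to Igf1r and Irs1 to Irs2.

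Among the class I catalytic subunits Pik3ca held 59.0% ± 1.84 of the summed FPKM in WT and 56.8% ± 2.12 in LRP1 KO, followed by Pik3cb with 24.6% ± 1.61 and 28.1% ± 2.16 (SD, n = 4 each). Pik3r1 was not the most abundant p85-type transcript. Pik3r2 held 68.8% ± 2.45 of that family in WT and Pik3r1 27.1% ± 2.13, against 67.9% ± 3.39 and 25.1% ± 0.989 in LRP1 KO (SD, n = 4 each). Pik3r3 held 4.13% ± 0.398 in WT and 6.96% ± 2.73 in LRP1 KO (SD, n = 4 each), with 3.86% in LRP1 KO library 4. The p85-type sum was 40.6, 42.6, 40.3 and 40.2 FPKM in WT, against 33.9, 36.7, 33.3 and 39.3 FPKM in LRP1 KO, without overlap, whereas the catalytic sum was 21.5 ± 1.12 FPKM and 21.1 ± 0.741 FPKM (SD, n = 4 each). These shares and sums are descriptions and were not tested.

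The markers of some cell types moved with some of these genes across the LRP1 KO libraries. From high to low, Akt1 ran from library 1 through 3 and 2 to 4, and the summed endothelial and mural markers had the same order. Akt2, Pik3r1 and the summed fibroblast markers had the reverse order. The summed macrophage markers, at 410, 617, 255 and 554 FPKM in LRP1 KO, had neither order. LRP1 KO library 4 had an endothelial sum and a fibroblast sum, 3471 FPKM, within the WT ranges. Its mural sum, 989.7 FPKM, its macrophage sum, 554 FPKM, and its Lrp1 level were outside those of WT. In that library Akt1, Akt2 and Pik3r1 were each outside the WT range, but by the smallest margin of the group. The part of the cell mixture in these differences was not tested.

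**Figure D4:**
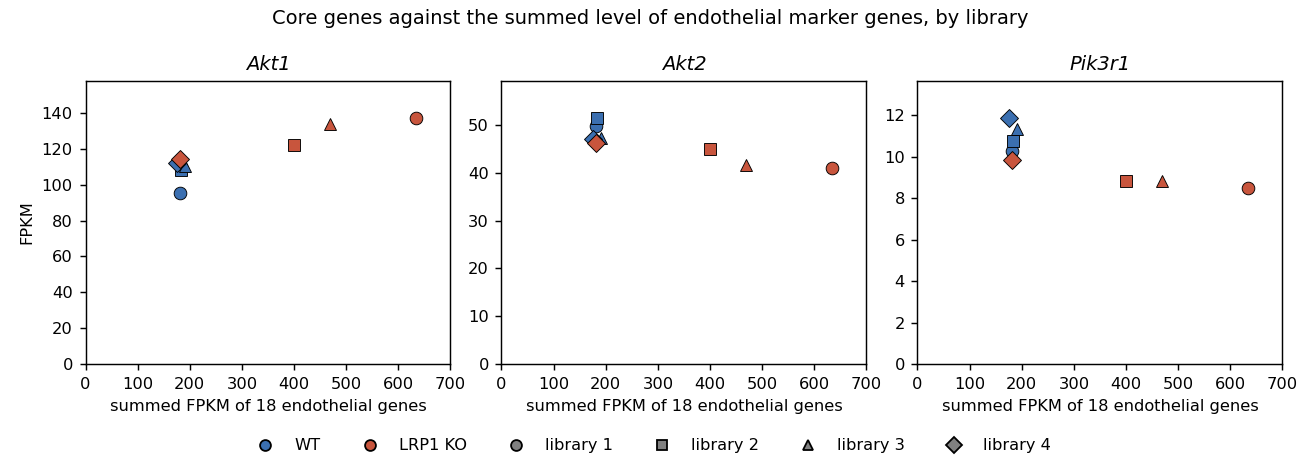
FPKM of Akt1, Akt2 and Pik3r1 (y axes, from 0) against the summed FPKM of 18 endothelial marker genes (x axis) in WT (blue) and LRP1 KO (red) libraries, with marker shapes for library numbers. The WT libraries and LRP1 KO library 4 lie between 175 and 191 FPKM on the x axis, and the other LRP1 KO libraries lie between 399.8 and 634 FPKM.

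The wider pathway was described with 87 further genes listed by role, of which 73 were tested. Of these 11 were called, 5 higher and 6 lower in LRP1 KO, or 15.1%, beside 13.6% of all tested genes. The median difference of the 73 was 0.01 on the log2(FPKM + 1) scale, with a range from -0.63 to 1.17. With any 1 library other than LRP1 KO library 4 left out, 3 to 6 of them were called, and 22 without LRP1 KO library 4. Over all tested genes the same fits called 4.50% to 8.85%, and 26.5% without LRP1 KO library 4. Igf1, Inpp5d and Mdm2 passed in all 8 of these fits and Pik3r5 in 7, failing without LRP1 KO library 2. Inpp5k passed without WT library 1, WT library 3 or LRP1 KO library 4, and Trib1 without WT library 3, WT library 4 or LRP1 KO library 4. Igf2r, Shc1, Inppl1, Foxo1 and Foxo4 passed in 1 of the 8, that without LRP1 KO library 4. With no filter on low values the calls of Igf1, Inpp5d and Foxo1 held and the other 8 were lost.

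Of the 4 ligand genes 2 were tested, Igf1 and Igf2, and Igf1 was called higher. Igf1, which encodes a ligand of IGF1R, had 2.24, 2.38, 2.75 and 2.13 FPKM in WT, against 6.10, 5.92, 5.24 and 4.84 FPKM in LRP1 KO. The rise was 0.95 ± 0.09 (SE) on the log2(FPKM + 1) scale, with a limma adjusted p of 0.000645. Ins1 and Ins2, the insulin genes, were listed at 0 in all libraries. Igf2r, which encodes a receptor that clears IGF2 without kinase signaling, rose from 10.6 ± 0.920 to 13.4 ± 1.29 FPKM (SD, n = 4 each; log2 difference 0.31, SE 0.09, limma adjusted p 0.0443).

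Among 12 tested receptor adaptors 1 was called, Shc1, which links receptors to the RAS pathway. Its mean was 112.6 ± 7.48 FPKM and 88.8 ± 11.4 FPKM (SD, n = 4 each; log2 difference -0.34, SE 0.09, limma adjusted p 0.0363), and LRP1 KO library 4, at 104.9 FPKM, reached into the WT range. None of the 8 tested receptor attenuators was called. The one with the highest mean FPKM, Ptpn11, which encodes the phosphatase SHP2, had 35.8 ± 2.98 and 43.5 ± 4.75 FPKM (SD, n = 4 each; log2 difference 0.27, SE 0.09, limma adjusted p 0.0712), and passed without LRP1 KO library 4.

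The other PI3K subunits held 1 called gene among 9 tested. Pik3r5, which encodes the p101 partner of the gamma catalytic subunit and is best known from leukocytes, had 0.673 ± 0.103 FPKM in WT, against 1.52 ± 0.376 FPKM in LRP1 KO (SD, n = 4 each; log2 difference 0.58, SE 0.12, limma adjusted p 0.0169). The lowest estimate of the whole list was that of Pik3ip1, an inhibitor of the p110 subunits, which was named after its values were seen. It had 16.1 FPKM in WT, against 10.3 FPKM in LRP1 KO on average, without overlap (log2 difference -0.63, limma adjusted p 0.0552).

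The phosphoinositide phosphatases had 3 called genes among 5 tested. Inpp5d, which encodes SHIP1 of blood cells, was at 0.238, 0.329, 0.516 and 0.345 FPKM in WT, against 3.09, 1.79, 1.34 and 2.23 FPKM in LRP1 KO, a rise of 1.17 ± 0.16 (SE) in log2(FPKM + 1) with a limma adjusted p of 0.0038. With a pseudocount of 0.1 in place of 1 the difference was 2.25 for this gene and 1.05 for Pik3r5. Inpp5d and Pik3r5 were higher in LRP1 KO, as were most macrophage markers. Within LRP1 KO, however, Inpp5d was highest in library 1 and the macrophage sum in library 2. The part of macrophage RNA in these rises was not tested. The broadly expressed Inppl1, which encodes SHIP2, fell from 84.8 ± 1.08 to 68.3 ± 8.54 FPKM (SD, n = 4 each; log2 difference -0.32, SE 0.08, limma adjusted p 0.0333), and Inpp5k fell from 28.05 ± 2.18 to 22.5 ± 1.78 FPKM (SD, n = 4 each; log2 difference -0.31, SE 0.08, limma adjusted p 0.0308). Both act on PIP3.

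None of the 8 tested genes among the remaining AKT and AKT-activating kinases was called. The gene of these with the highest mean FPKM, Mapkap1, which encodes the SIN1 subunit of mTOR complex 2, had 23.8 ± 0.702 and 25.9 ± 2.22 FPKM (SD, n = 4 each; log2 difference 0.11, SE 0.07, limma adjusted p 0.261). Of 9 AKT attenuators 1 was called, Trib1, which encodes a pseudokinase of the Tribbles family. It fell from 13.5 ± 0.776 to 10.4 ± 1.12 FPKM (SD, n = 4 each; log2 difference -0.35, SE 0.08, limma adjusted p 0.0247).

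Among 19 tested substrates and outputs of AKT, 1 was called higher and 2 lower. Mdm2, the p53 ubiquitin ligase, had 53.5, 41.7, 51.6 and 59.0 FPKM in WT, against 89.2, 77.6, 88.6 and 68.0 FPKM in LRP1 KO, and rose by 0.64 (SE 0.12, limma adjusted p 0.0118) on the log2(FPKM + 1) scale. Foxo1, a FoxO factor with a known role in ECs, fell from 4.87 ± 0.130 to 3.83 ± 0.253 FPKM (SD, n = 4 each; log2 difference -0.28, limma adjusted p 0.0278), and Foxo4 fell from 12.8 ± 1.90 to 9.73 ± 0.970 FPKM (SD, n = 4 each; log2 difference -0.36, limma adjusted p 0.0481). The call of Foxo4 was lost when the libraries were rescaled or the variance was not tied to the mean level. Nos3, the endothelial nitric oxide synthase, and Slc2a4, the insulin-regulated glucose transporter, did not reach the filter of 1 FPKM in 4 libraries and were not tested.

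**Figure D5:**
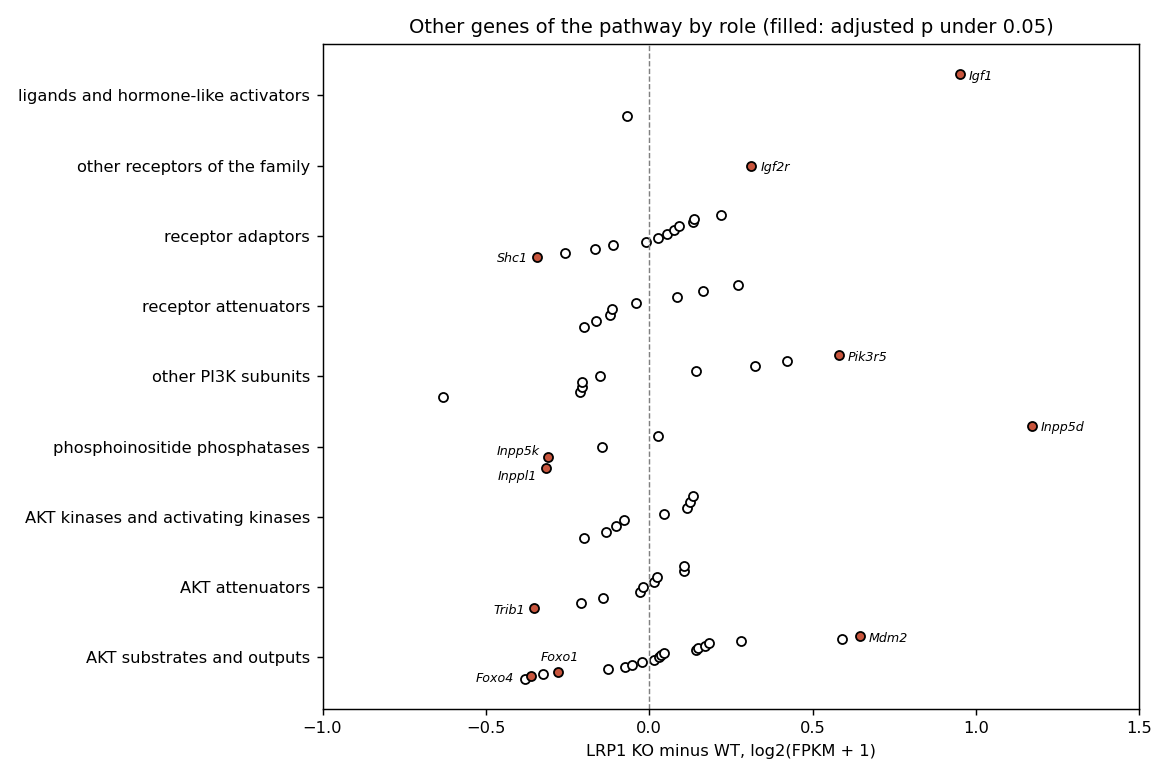
Difference between LRP1 KO and WT on the log2(FPKM + 1) scale (x axis) for the 73 tested genes outside the core, in rows by role. Filled red points with names are the 11 called genes, 5 higher and 6 lower in LRP1 KO, and open points are genes that were not called.

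The tested genes whose log2(FPKM + 1) was most like that of a core gene over the 8 libraries were named by Pearson's r, as a description of libraries that share group and cell mixture. They were Klhl24 (0.989) and Egfr (0.986) for Insr, and Chd2 (0.975) and Pom121 (0.973) for Igf1r. For the adaptors they were Cdkl2 (0.967) and Ercc6 (0.962) for Irs1, and Hoxb3 (0.976) and Col4a2 (0.973) for Irs2. Ranbp9 (0.978) and Pag1 (0.958) were closest to Pik3ca, and Ptpn13 (0.985) and Lpl (0.980) to Pik3r1. Smurf1 (0.987) and Dpp9 (0.981) were closest to Akt1, and Arhgef25 (0.996) and Zbtb8a (0.993) to Akt2. No core gene was among the 2 nearest genes of another.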

How the data were processed

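Per the labels, RNA of mouse ECs was sequenced after TruSeq library preparation, and the submitters' processing notes list TopHat2, Cufflinks and mm10. The study's methods describe a count pipeline instead, but the deposited values are not counts. The values the authors deposited were taken as FPKM, quantile normalized across the 8 libraries. The header names no unit. Quantile normalization removes depth, so it is unknown and no counting error is given, and it can spread a broad shift over other genes. Groups and replicate numbers came from the titles.

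Genes with at least 1 FPKM in at least 4 libraries were tested (11389 of 22520) with limma 3.58.1 (trend) in R 4.3.3 on log2(FPKM + 1), with group as the only term and Benjamini-Hochberg adjustment at 0.05. The +1 understates changes of low genes. Ratios were compared with exact permutation tests. Positions came from GENCODE M21 and promoters from RefSeq. The fit was tested on simulated data.

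Named genes are the core, Lrp1, called pathway genes (where a role has none, its highest tested gene), the 2 genes most like each core gene, marker lists and other PI3K family members. The values of 1 listed gene were left out of the text. The members and lists were chosen with earlier results of these data known. Igf2, Col1a2, Cdh5, Eng, Fap, Cd14, Tnnt2, Myh6, Tnni3, Ryr2, Scgb1a1, Nos3, Slc2a4, Ins1 and Ins2 were named as members of these lists, after their values were seen. Alternatives changed the pseudocount, filter, variance moderation, scaling, replicate block and libraries used.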

Additional observations from a re-analysis of the deposited data

How the results depend on the processing

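No core gene changed its sign under any alternative, and Irs1 had no value with a minimum of 5 FPKM. The 1 called core gene became 0 with an added 2-fold limit and 0 with no filter on low values. It became 0 to 4 with 1 library left out, of which the 4 (Insr, Pik3r1, Akt1 and Akt2) came without LRP1 KO library 4. The count of called pathway genes went from 11 to 1 with the 2-fold limit, to 4 with no filter (3 of the 11 and 1 other gene) and to 3 to 22 with 1 library left out. The 1547 called genes became 184, 523 and 512 to 3021 under the same settings, the highest again without LRP1 KO library 4. Rescaling the libraries gave 786 higher and 761 lower genes in place of 714 and 833. The log2 ratio of Akt1 to Akt2 ranged from 0.36 to 0.50, that of Pik3ca to Pik3r1 from 0.16 to 0.25, that of Insr to Igf1r from -0.61 to -0.37 and that of Irs1 to Irs2 from 0.26 to 0.54 with 1 library left out. The exact permutation p was 0.0571 for Akt1 to Akt2 without any 1 WT library, and for Pik3ca to Pik3r1 without WT library 4, LRP1 KO library 1 or LRP1 KO library 3. The causes were not tested. Unknown depth limits what can be said of low genes such as Irs1.

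Deviations of same-numbered WT and LRP1 KO libraries correlated at 0.158, 0.141, 0.340 and -0.312 for numbers 1 to 4, so the numbers were not taken to pair them, and 5 of the 8 libraries correlated best with their own number. With the replicate number as a block, 1 core gene (Pik3r1), 6 pathway genes and 1013 genes were called, and Igf2r, Inppl1, Trib1, Foxo1 and Foxo4 were not.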
